A study of Mus musculus with 6 samples.

Results

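The Ifi200 family is a group of interferon-inducible mouse genes on chromosome 1 whose proteins bind DNA. It was followed in bone marrow monocytes that had been cultured with or without IFN-beta. The members considered were Aim2, Ifi203, Ifi204, Ifi205, Ifi213, Ifi214, Mnda and Pyhin1, 8 genes in all. The gene names printed in the scanner files gave 7 probes of 4 of them (Aim2, Ifi204, Ifi205 and Pyhin1). Current RefSeq symbols added Ifi213, listed there as Pydc4, and Ifi214, listed as BC094916, and the probe description in the files added Ifi203. Together 11 probes of 7 member genes were found, among 56605 probes and 36981 gene names. Mnda, which RefSeq now calls Ifi211, had no probe of its own.

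Proteins of this family typically pair a HIN domain with a pyrin domain, but not all have both, and Ifi202b lacks the pyrin domain. The HIN domain grips the backbone of double-stranded DNA. Through the pyrin domain the proteins bind one another and their partners. Aim2 detects DNA in the cytosol and assembles an inflammasome with the adaptor Asc (the product of Pycard) and caspase-1. Several other members are found in the nucleus and affect transcription. Type I interferons signal through the receptor Ifnar1/Ifnar2 to factors such as Stat2 and Irf9, which act at the interferon-stimulated response element of target promoters.

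Both groups were monocytes of C57BL/6J mice aged 6 to 8 weeks, isolated from bone marrow by magnetic sorting and kept for 60 h in M-CSF at 20 ng/mL, a growth factor under which monocytes mature to macrophages. One group of 3 samples also received 100 U of IFN-beta, and the control group of 3 samples did not. Each sample was hybridised to 1 one-colour Agilent array. The labels do not say whether replicates were separate animals or cultures. The p-values thus measure only the spread between these samples, which may be technical.

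All 12 monocyte and macrophage markers lay well above background on every array. Their median level was 4.12 to 4.22 with IFN-beta and 4.14 to 4.46 in controls. Of the 12, 2 were called higher (Ly6c2 and Fcgr1) and 3 lower (Cd14, Cx3cr1 and Itgam). The other tested probe of Itgam had the opposite sign. A level is log2 of the processed signal minus log2 of that array's 75th percentile. The controls were not alike. The median of the 12 fibroblast markers was -5.13, -4.81 and -4.28 with IFN-beta, against 2.83, 3.06 and -5.78 on controls 1, 2 and 3. Controls 1 and 2 differed from each other by a robust SD of 0.116, where other pairs of arrays differed by 0.250 to 0.613 and repeat spots within these arrays by 0.0563 and 0.0575. If they are 1 preparation, the controls are 2 samples and not 3, and SEs and p-values over 3 controls are too small. With the pair averaged as 1 sample, 9 of the 11 member probes were called. Erythroid markers followed the same split, with a median of -6.57 to -6.55 with IFN-beta and of -1.69, -0.79 and -6.79 on controls 1, 2 and 3. Because of this split, values against control 3 alone are given beside those against all controls. Every array lay on slide 1 except IFN-beta 2 and 3, on slide 2. Comparison with control 3, which is on slide 1 as well, does not address the slide.

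Nearly all measured members were higher with IFN-beta. In limma 10 of the 11 member probes were higher with IFN-beta at an adjusted p under 0.05, none was lower, and the exception was 1 probe of Aim2. Over all 29795 probes tested, 22.6% were called, 15% higher and 7.56% lower. The median log2 fold change of the member probes was 3.69, against 0.15 over all tested probes, and 3.1 and -0.03 against control 3 alone. For the same 10 probes every IFN-beta array was above every control, which held for 27.1% of all tested probes in this direction and for 42.1% in either. The count was also 10 without control 3, and 9 against control 3 alone. All 11 probes passed the filter on dim probes, but 2 of them (Ifi214 and Ifi213 probe 2) only through the IFN-beta arrays, so their calls follow in part from the filter. Of the other 9 probes, above background on all arrays, 8 were called higher, against 15.7% of all such probes. Their median was 2.90, or 2.32 against control 3.

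**Figure D1:**
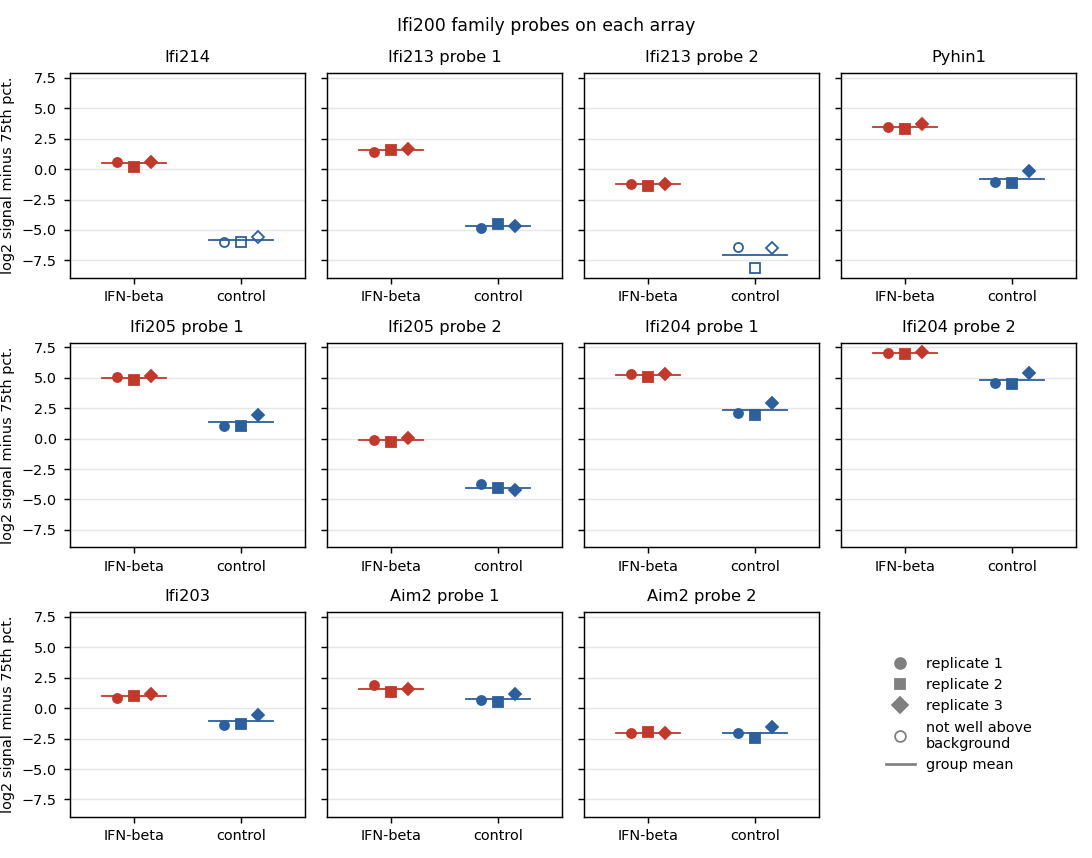
Level of each member probe on each array (y axis, log2 signal minus log2 of the array's 75th percentile), IFN-beta on the left and control on the right of each panel, with a line at the group mean. Open symbols were not well above background. The groups overlap in 1 panel, that of Aim2 probe 2, and control 3 is the highest control for 8 of the 11 probes.

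Sequences of 3 member probes are shown as examples. Those of Aim2 and Ifi205 are the upstream probes of their pairs, each with transcripts of 1 gene only, and that of Pyhin1 is the 1 member probe that is not contiguous on the genome. They are taken from the scanner files and have no part in capitals. The Aim2 probe lay at chr1:175385660-175385719, the Ifi205 probe at chr1:175956747-175956806 on the minus strand, and the Pyhin1 probe at chr1:175574960-175576173 on the plus strand (mm9, as annotated in the files). The Pyhin1 probe, 60 bases long, spans 1214 bases of the genome and so crosses a gap in the alignment.
Aim2 probe 1: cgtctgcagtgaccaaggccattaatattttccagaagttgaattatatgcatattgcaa
Ifi205 probe 2: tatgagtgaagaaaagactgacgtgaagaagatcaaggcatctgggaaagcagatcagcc
Pyhin1: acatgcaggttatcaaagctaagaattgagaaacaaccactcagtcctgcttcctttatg

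Aim2 encodes the inflammasome sensor of cytosolic DNA, and its probes gave the smallest responses of the family. Probe 1, whose sequence is printed above, had levels of 1.87, 1.35 and 1.58 with IFN-beta, against 0.65, 0.52 and 1.18 in controls. The groups did not overlap, but the gap between the lowest IFN-beta array and control 3 was 0.17. The log2 fold change was 0.81 ± 0.23 (adjusted p = 0.0413), and the difference from control 3 alone was 0.41. For fold changes, here and below, ± is the SE of the fit with 3 arrays per group. The call was kept in 9 of 21 alternative settings. It was lost within slide 1 (1.08, adjusted p = 0.201), with spike-in scaling (0.46, adjusted p = 0.298) and in each fit that left out an array, except that without control 3 (adjusted p of 0.0687 to 0.145).

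Aim2 probe 2 lies 10376 bases further along the plus strand (chr1:175396036-175396095) and contains the polyadenylation signal letters AATAAA. Its levels were -2.04, -1.95 and -2.05 with IFN-beta, against -2.08, -2.48 and -1.56 in controls. The groups overlapped, and the IFN-beta arrays lay between controls 2 and 3. The log2 fold change was 0.03 ± 0.24 (adjusted p = 0.944), with a sign that turned in 7 settings. The fold changes of the pair differed by 0.78 ± 0.20, and the level of probe 1 minus that of probe 2 was higher on every IFN-beta array than on every control. For such differences between probes or genes, here and below, ± is the plain SE over the arrays. The SE of the fit also draws on other probes, so the 2 kinds are not comparable. Aim2 transcript was thus measured differently by its 2 probes, and neither gave a call that held in every setting.

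Ifi204 encodes p204, a nuclear protein counted as a mouse relative of human IFI16. Both probes lie on the minus strand, 95 bases apart (chr1:175677552-175677611 and chr1:175677647-175677706). Probe 1 had levels of 5.33, 5.09 and 5.27 with IFN-beta, against 2.10, 1.97 and 2.91 in controls, a log2 fold change of 2.90 ± 0.26 (7.46-fold, adjusted p = 0.000406). Probe 2 had levels of 7.03, 6.95 and 7.11 with IFN-beta, against 4.55, 4.45 and 5.36 in controls, a log2 fold change of 2.24 ± 0.25 (4.72-fold, adjusted p = 0.00111). Ifi204 was thus already well above background without IFN-beta, and control 3 was the highest control on both probes. Against control 3 alone the differences were 2.32 and 1.66. The response of probe 1 exceeded that of probe 2 by 0.66 ± 0.05, with no overlap between groups.

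Ifi205 encodes p205, which in mouse macrophages is known to control expression of Asc. Probe 1 (chr1:175942245-175942304, minus strand) had levels of 5.06, 4.80 and 5.18 with IFN-beta, against 1.04, 1.02 and 1.91 in controls. It rose by 3.69 ± 0.27 on the log2 scale (12.9-fold, adjusted p = 0.000168), and by 3.1 against control 3. This probe lists RefSeq transcripts of both Ifi205 and Ifi211, the current name of Mnda, so the 2 genes cannot be told apart by it. Probe 2, printed above, lists transcripts of Ifi205 alone and lies 14502 bases away. Its levels were -0.15, -0.27 and 0.01 with IFN-beta, against -3.76, -4.08 and -4.24 in controls, a log2 fold change of 3.89 ± 0.19 (14.8-fold, adjusted p = 3.96e-05). Here control 3 was the lowest control, and the difference from it was 4.10. The responses of the pair differed by -0.19 ± 0.41 (probe 1 minus probe 2), within their spread. Of Mnda, whose human counterpart is a nuclear antigen of myeloid cells, no level of its own can be given.

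Ifi203 encodes another HIN protein of the nucleus. Its probe (chr1:175863777-175863836, minus strand) is listed by an Ensembl transcript and named only in the description. Levels were 0.86, 1.01 and 1.14 with IFN-beta, against -1.35, -1.33 and -0.57 in controls. Control 3 was again the highest control, and no control reached the IFN-beta arrays. The log2 fold change was 2.09 ± 0.24 (4.25-fold, adjusted p = 0.0012), or 1.58 against control 3.

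Pyhin1, listed by RefSeq as Ifi209, is named for its pyrin and HIN domains. Levels were 3.48, 3.26 and 3.69 with IFN-beta, against -1.05, -1.17 and -0.13 in controls. The gap between the groups, 3.39, was larger than the range within either. The log2 fold change was 4.26 ± 0.29 (19.2-fold, adjusted p = 0.00013), or 3.61 against control 3.

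Ifi213 and Ifi214 are mouse genes of the cluster with pyrin domains whose functions are less well described. Their signal was low or not well above background without IFN-beta, and on the percentile scale Ifi213 probe 1 had the largest response among member probes measured in both groups. Ifi213 probe 1 (chr1:175498593-175498652, minus strand) was well above background on all arrays. Its levels were 1.44, 1.54 and 1.62 with IFN-beta, against -4.80, -4.55 and -4.66 in controls, a log2 fold change of 6.20 ± 0.16 (73.6-fold, adjusted p = 9.91e-06). The 3 controls were level here, and the difference from control 3 was 6.19. Control 3 lay near the lowest signal that counted as above background on its array (-4.95). With normexp background correction the log2 fold change was 4.21 or 3.90.

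The other probe of Ifi213 and the probe of Ifi214 failed to clear background on all 3 controls, so only a lower bound on the rise holds. It sets the IFN-beta mean against the lowest signal that counted as above background on each control array, or the probe's own signal where that was higher. That lowest signal is of any probe on the array, and the bound holds on the percentile scale only. With normexp background correction, log2 fold changes fell below it, at 2.43 or 2.03 for Ifi213 probe 2 and 3.60 or 3.22 for Ifi214. Ifi213 probe 2 (chr1:175522791-175522850, minus strand) had levels of -1.20, -1.36 and -1.21 with IFN-beta and measured -6.42, -8.16 and -6.48 in controls. It was at least 20.0-fold higher with IFN-beta (adjusted p = 0.000188), and at least 12.9-fold against control 3. Ifi214 (chr1:175451443-175451502, minus strand) had levels of 0.56, 0.21 and 0.62 with IFN-beta and measured -6.01, -6.00 and -5.58 in controls. It was at least 65.7-fold higher (adjusted p = 1.34e-05), and at least 42.6-fold against control 3. Both probes entered the test only through the IFN-beta arrays, so their calls follow in part from the filter.

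Among the 6 genes with a probe above background on all arrays, the order of response was Ifi213 (6.20, its probe 1), Pyhin1 (4.26), Ifi205 (3.79, the mean of its probes), Ifi204 (2.57), Ifi203 (2.09) and Aim2 (0.42). Ifi214, known only by a bound, was not ranked. Neighbours were compared by the difference of their levels on each array. Pyhin1 and Ifi205 did not differ beyond the spread of the arrays (0.47 ± 0.24). The steps between Ifi213 and Pyhin1 (1.94 ± 0.36), Ifi205 and Ifi204 (1.22 ± 0.20), Ifi204 and Ifi203 (0.48 ± 0.11) and Ifi203 and Aim2 (1.67 ± 0.16) had no overlap between groups. The genes were ordered by these same values, so the direction of each step was set beforehand. The lack of overlap is thus a description and no separate test of the order. With 3 arrays per group an exact 2-sided permutation test cannot go below p = 0.1. The sizes at the top depended on the background correction. With normexp and percentile scaling, log2 fold changes were 4.21 for Ifi213 probe 1, 3.90 for Pyhin1, 3.60 for Ifi214, 3.57 and 2.44 for the Ifi205 probes and 2.43 for Ifi213 probe 2. With normexp and quantile normalization, Ifi213 probe 1 stood at 3.90 and Pyhin1 at 3.84, Ifi214 at 3.22, Ifi205 probe 2 at 2.17 and Ifi213 probe 2 at 2.03.

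**Figure D2:**
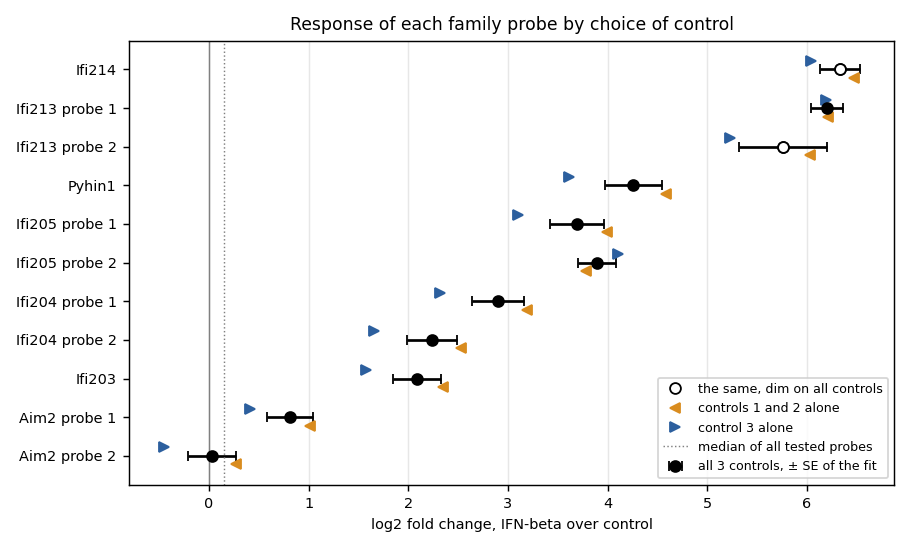
Log2 fold change of each member probe, IFN-beta over control (x axis), for all 3 controls (black, ± SE of the fit), controls 1 and 2 alone (orange) and control 3 alone (blue). Open points mark the probes dim on all controls, whose values are no measured folds. Filled points run between 0.03 for Aim2 probe 2 and 6.20 for Ifi213 probe 1, and the dotted line is the median of all tested probes, 0.15.

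The choice of control moved the sizes. Control 3 was the highest control for 8 of the 11 member probes, as it was for 71.3% of all tested probes, and the lowest for 1. All member probes but Aim2 probe 2 were higher on every IFN-beta array than on control 3. Of the 10 called probes, 7 were called in every alternative setting that gave a value. The calls of Ifi203 and of Ifi204 probe 2 were lost within slide 1, where 1 IFN-beta array faces 3 controls (1.94, adjusted p = 0.0958, and 2.24, adjusted p = 0.0852). Markers of basophils and mast cells moved with the groups too: 6 of 6 were higher with IFN-beta, with a median log2 fold change of 3.41 (2.84 against control 3). Of the neutrophil markers 4 of 8 were higher. Of the conventional dendritic cell markers tested, 3 of 4 were lower (median -2.41, or -1.89 against control 3). Of 5 NK cell markers listed, 2 were tested and both were lower (median -1.23), while the others were too dim to test. Zbtb46, Cd209a and Klrb1c passed the filter only through the controls, so their calls follow in part from it. Their dim IFN-beta values also enter the medians. Over all genes with 1 probe each, 13.5% were higher and 8.25% lower. The part of these cell types in the family's response was not tested. In RNA of whole cultures, more cells of a type and more RNA per cell cannot be told apart.

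The member genes lie in 1 cluster, and their neighbours there responded as well. Between the first and the last member probe, over 571147 bases of chromosome 1, the array holds 35 probes, of which 31 were tested and 29 were called higher. Of the 24 that belong to no member, 20 were tested, 19 were higher and none was lower. Over all tested probes 15% were higher. Ifi214, Ifi213 probe 2, LOC102642169 and a probe of Ifi208 passed the filter only through the IFN-beta arrays, so their calls follow in part from it. Ifi206, a HIN-200 gene beside Aim2, had levels of 4.68, 4.74 and 4.92 with IFN-beta, against -2.30, -2.38 and -1.59 in controls. It rose by 6.87 ± 0.24 (adjusted p = 1.34e-05). Its probe is the next along the chromosome after Aim2 probe 2, which did not pass the test, so the smallest and one of the largest responses of the cluster lie side by side.

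Ifi208, which the files call Pydc3, has 3 probes. Of these, 2 gave log2 fold changes of 6.44 ± 0.24 and 3.17 ± 0.22. The other was not well above background in controls, and its rise was at least 62.9-fold on the percentile scale. Mndal, a relative of Mnda, rose by 1.51 ± 0.20 (adjusted p = 0.00239), a call lost within slide 1. Ifi202b, which lacks the pyrin domain and is known to inhibit Aim2, was not well above background on any array with either of its 2 probes. However, 1 of these shares a listed transcript with the probe ENSMUST00000195502, which was well above background on every array (mean -0.17 with IFN-beta, -1.61 in controls). Of the 8 further family genes sought, 4 were on the array and 3 were tested, all higher, with a median of 3.17 (2.70 against control 3). This median is the value of Ifi208 by its probe with the highest mean, which had the smallest response of its 3 probes.

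A further 9 probes are named only by their position within the cluster. All 9 were called higher, with log2 fold changes of 1.66 to 2.37 and a median of 2.01. The 1 tested probe of the cluster outside the members that was not called, ENSMUST00000195502, stood at 1.43 ± 0.66 (adjusted p = 0.15). Outside the cluster, Cadm3 on the Aim2 side was not tested, and of the olfactory receptor genes on the Ifi205 side only Olfr430 was. It stood at -1.13 ± 0.29 (adjusted p = 0.0294), a call lost in 10 of 21 settings.

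**Figure D3:**
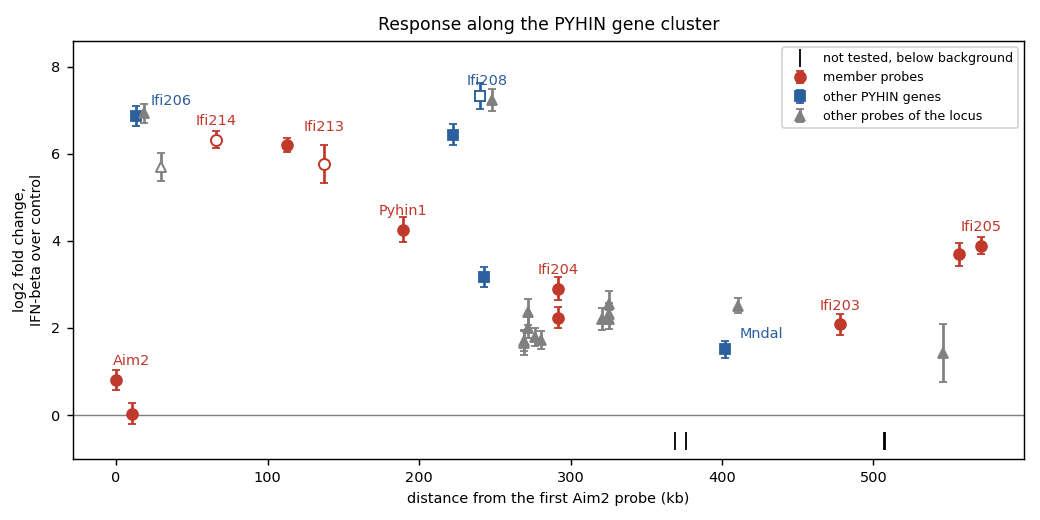
Log2 fold change ± SE, IFN-beta over control (y axis), against distance from the first Aim2 probe in kb (x axis), for member probes (circles), other PYHIN genes (squares) and other probes of the locus (triangles), with open symbols for probes dim on all controls and bars at the foot for probes too dim to test. Points of 5.70 to 7.33 sit between Aim2 and Ifi208, with Pyhin1 at 4.26 and 1 Ifi208 probe at 3.17 among them, and points from Ifi204 to Mndal lie between 1.51 and 2.90.

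Genes of this family resemble each other, and some probes list transcripts of more than 1. Ifi213 probe 1 shares the transcript ENSMUST00000178186 with a probe of Ifi208, and Ifi213 probe 2 shares ENSMUST00000182880 with another. The Ifi206 probe shares transcripts with probes listed as ENSMUST00000169797 (6.93 ± 0.22) and ENSMUST00000192876 (7.23 ± 0.25). A probe of Ifi202b shares the transcript ENSMUST00000195502 with the probe of that name. Values of Ifi205 probe 1, Ifi206, Ifi208, Ifi213 and ENSMUST00000195502 may therefore hold signal of a neighbour. Compared letter by letter with the other probes of the cluster, member probes shared runs of at most 7 to 10 bases, with the exception of Ifi204 probe 2, which shared 18 with a probe named by position. No genome was used, so matches of probes to the transcripts of other members were not counted.

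The promoters of most members hold the same short motif. RefSeq promoter windows (GRCm38.p6, 250 bases before to 50 after each annotated start) were given for 7 of the 8 members, without Ifi204. They were searched on both strands for GAAA, any 2 bases and again GAAA, the core of the interferon-stimulated response element, and for TTCNNNGAA, the gamma-activated site. The first motif was found at any start in 5 of the 7 members (Ifi203, Ifi205, Ifi213, Ifi214 and Mnda). Over all genes it was found in 3.99% of 27025, and in 3.44% of 32851 promoter windows. It was also found in 4 of 5 other PYHIN genes (Ifi206, Ifi207, Ifi208 and Mndal). The second was in none of the 7 members, against 9.55% of all genes and 8.3% of windows.

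The stretches of the members that hold the core on the gene's strand are shown, with that of Ifi206 as an example of the other 4 PYHIN genes, because their surroundings can be compared. Capitals mark the core. It begins 79 bases before the start of Ifi214 (chr1:173536007-173536056), 73 before Ifi213 (chr1:173599316-173599365), 134 before Ifi205 (chr1:174031860-174031909), 37 before Mnda (chr1:173913054-173913103) and 35 before the second annotated start of Ifi203 (chr1:173942498-173942547), all on the minus strand. It begins 40 bases before the start of the neighbour Ifi206 (chr1:173491329-173491378, minus strand). Pyhin1, with no match, is shown by the window of its promoter most like that of Ifi214 (chr1:173630760-173630809, plus strand), with the corresponding letters in capitals.
Ifi214: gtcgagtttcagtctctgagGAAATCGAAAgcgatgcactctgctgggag
Ifi213: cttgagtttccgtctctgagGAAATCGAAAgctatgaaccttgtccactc
Ifi206: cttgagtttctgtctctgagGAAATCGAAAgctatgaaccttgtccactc
Ifi205: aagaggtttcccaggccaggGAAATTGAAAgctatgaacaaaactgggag
Mnda: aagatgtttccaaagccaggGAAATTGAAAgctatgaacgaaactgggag
Ifi203: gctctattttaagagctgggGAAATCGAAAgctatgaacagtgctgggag
Pyhin1: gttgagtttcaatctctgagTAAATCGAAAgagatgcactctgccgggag

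Of these 50 bases, Ifi213, Ifi206 and Ifi208 each shared 36 with Ifi214, Ifi203 and Mndal shared 35 each, Ifi205 and Mnda 30 each and Ifi207 29. The Pyhin1 window shared 45, yet its core differed by G1T (motif base, position counted from 1 at the 5′ end of the core, then the Pyhin1 base). The best window of Aim2 shared 22. Pyhin1 rose by 4.26 without a match to these letters. Aim2, also without one, stood at 0.81 with probe 1 and at 0.03 with probe 2. A match is a description of the letters in the window and not of a bound factor.

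**Figure D4:**
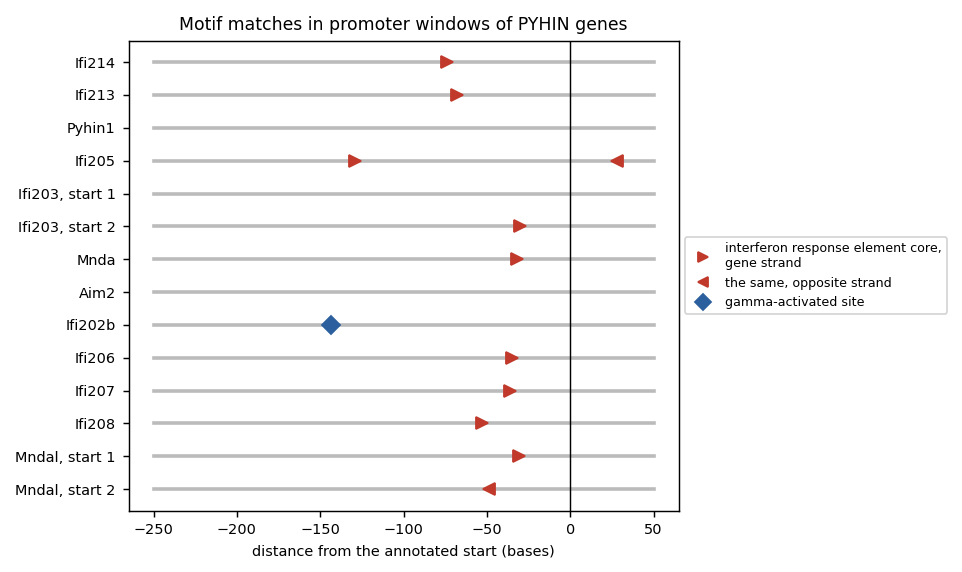
Matches in the promoter windows of PYHIN genes by distance from the annotated start in bases (x axis), with members in the upper rows. Arrowheads are the interferon response element core, pointing right on the gene's strand and left on the other, and the diamond is a gamma-activated site. Aim2, Pyhin1 and the first start of Ifi203 have no mark.

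The next list holds genes that work with Aim2 or beside it in inflammasomes. Of 20 listed, 18 were tested, 4 were higher (22.2%) and none was lower, with a median of 0.57, or 0.15 against control 3. Over all 19356 genes with 1 probe each, 13.5% were higher, 8.25% were lower and the median was 0.12. Nlrp1a, another inflammasome sensor, had levels of 5.26, 5.34 and 5.16 with IFN-beta, against 3.02, 2.89 and 3.09 in controls. It rose by 2.25 ± 0.15 (adjusted p = 0.00013), and Casp4, the caspase for cytosolic lipopolysaccharide, by 1.30 ± 0.17 (adjusted p = 0.00237).

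Mefv, which encodes pyrin (0.94 ± 0.19, adjusted p = 0.0136), and Casp1 (0.87 ± 0.23, adjusted p = 0.0315) also rose, with calls lost in 10 and 11 of 21 settings. Against control 3 alone they stood at 0.61 and 0.43. The adaptor Pycard was at 0.63 ± 0.21 (adjusted p = 0.0653) and the pore-forming Gsdmd at 0.64 ± 0.22 (adjusted p = 0.0681), neither called. Of the substrates, Il18 was at 0.47 ± 0.23 (adjusted p = 0.167) and Il1b at -0.30 ± 0.29 (adjusted p = 0.473).

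Of 24 other genes for sensing DNA in the cytosol, 6 were higher (25%) and none was lower, with a median of 0.44 (0.35 against control 3). Zbp1, a sensor of Z-form nucleic acid, rose by 4.32 ± 0.28 and Irf7, which drives interferon genes, by 4.34 ± 0.29. Cgas, the enzyme that makes cGAMP on DNA, had levels of 3.30, 3.32 and 3.37 with IFN-beta, against 1.22, 1.24 and 2.02 in controls. Its log2 fold change was 1.84 ± 0.24 (adjusted p = 0.00199).

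The DNA-degrading Trex1 rose by 1.65 ± 0.23 (adjusted p = 0.00314), or 1.31 against control 3, a call lost in 2 of 21 settings. The nucleotide hydrolase gene Samhd1 rose by 1.11 ± 0.20 (adjusted p = 0.00843), or 0.73 against control 3, a call lost in 4. Sting1, the receptor of cGAMP, rose by 0.84 ± 0.19 (adjusted p = 0.0192), or 0.53 against control 3, a call lost in 10. The kinase and transcription factor downstream of it were not called, Tbk1 at 0.24 ± 0.25 and Irf3 at 0.04 ± 0.14.

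Of 9 genes of interferon receptor signalling, 5 were higher (55.6%) and none was lower, with a median of 1.19 (0.84 against control 3). Usp18, which restrains the receptor, rose by 4.35 ± 0.26, and the inhibitor Socs1 by 3.54 ± 0.15. Of the factors that act at the response element, Stat2 rose by 2.78 ± 0.23 and Irf9 by 1.19 ± 0.20, or 2.31 and 0.84 against control 3. The call of Irf9 was lost in 3 of 21 settings. The receptor chains were not called, with Ifnar1 at 0.43 ± 0.16 (adjusted p = 0.0961, and 3 of its other probes of opposite sign) and Ifnar2 at 0.26 ± 0.22 (adjusted p = 0.421).

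**Figure D5:**
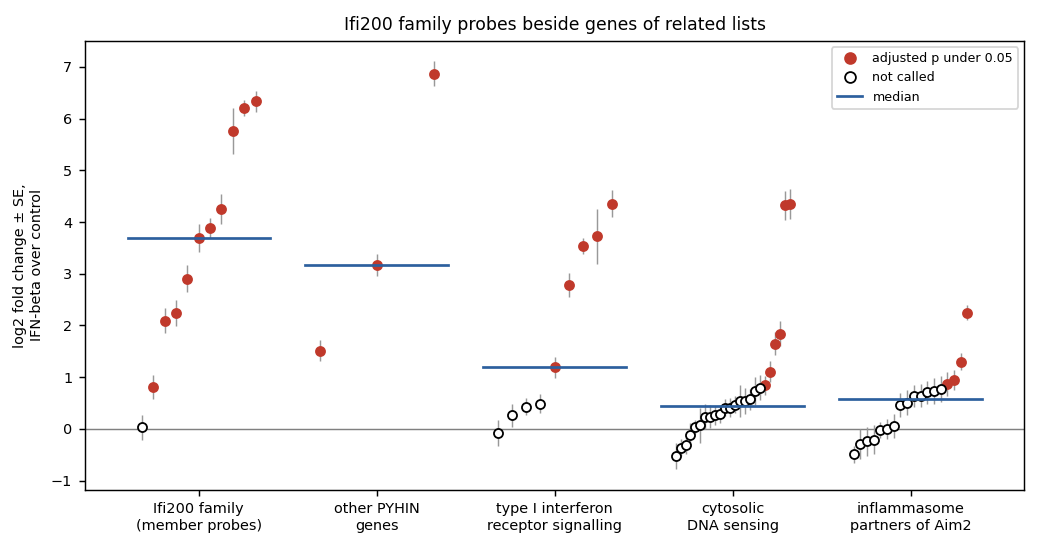
Log2 fold change ± SE, IFN-beta over control (y axis), for the member probes and for tested genes of 4 lists, 1 probe per gene (x axis, genes ordered by value within a list). Filled points passed an adjusted p of 0.05. Ifi214 (6.33) and Ifi213 probe 2 (5.76) were dim on all controls, so their values are no measured folds. Medians (lines) are 3.69 for the members, 3.17, 1.19, 0.44 and 0.57.

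The mean centred profile of the 9 member probes above background on all arrays was 1.47, 1.34 and 1.54 with IFN-beta, against -1.60, -1.70 and -1.05 in controls. Among 22519 probes, the 5 genes outside the family whose levels were most like it over the 6 arrays were Mx1 (Pearson r = 0.9999), Lefty2 (0.9999), Ifi47 (0.9998), Ms4a4b (0.9998) and Mx2 (0.9997). Such values are a description, since 6 arrays in 2 groups give a high r to genes that differ between the groups with control 3 in between. Of these genes Mx1 and Mx2, antiviral GTPases, rose by 4.59 ± 0.26 and 3.67 ± 0.23, and Lefty2 by 1.31 ± 0.16.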

How the data were processed

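RNA of 6 samples was measured on one-colour arrays. Per the file headers, the authors extracted spot intensities with Agilent Feature Extraction 12.0.3.1, with no normalization between arrays. The deposited table of values holds log2 values whose normalization is not given in the sources used here beyond limma, named in the submitters' processing notes, and it served as an alternative. Log2 processed signals were scaled to each array's 75th percentile over non-control spots (343.9, 329.9 and 341.7 on the IFN-beta arrays, 778.5, 750.2 and 437.8 on controls). Outlier spots (135 to 174 per array) were dropped, which set aside 7 probes, and repeat spots were averaged. No spot was saturated. Probes entered the test if all arrays of either group showed them well above background. The fit used lmFit and eBayes of limma 3.58.1 (R 4.3.3, data.table, version 1.17.8), with Benjamini-Hochberg adjustment over 29795 probes, and was tested on simulated data. A listed gene is given by its tested probe with the highest mean. Members, lists and named genes (up to 5 called genes a list with the lowest p, selected uncalled ones, locus neighbours and the 5 most alike profiles) were chosen with earlier results of these data known. Sting1, the 5 called monocyte markers and the dendritic and NK cell markers dim with IFN-beta fall outside this rule. They were named after their values were seen. One gene that this rule names is not reported here. Probe positions are on mm9, from the files. The number of arrays limits the precision. Same-numbered arrays were not taken as pairs, since their deviations correlated at only 0.064, 0.029 and 0.078.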

Additional observations from a re-analysis of the deposited data

How the results depend on the processing

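The count of member probes called (10) ranged from 7 to 10 over the alternatives, and from 9 to 10 with 1 array left out. Of the probes, Aim2 probe 1 depended on the setting: its call was lost with spike-in scaling, no filter on dim probes (adjusted p = 0.0744), the replicate block (0.81, adjusted p = 0.0504), slide as a block (adjusted p = 0.108), within slide 1, against control 3 alone (adjusted p = 0.396), with controls 1 and 2 averaged as 1 sample (adjusted p = 0.142, an alternative chosen after seeing the data) and without any 1 array other than control 3. Aim2 probe 2, never called, turned to -0.32 with spike-in scaling, -0.0012 with slide as a block and within slide 1, -0.45 against control 3 alone, -0.09 with controls 1 and 2 averaged, and ranged from -0.19 to 0.27 with 1 array left out (-0.0032 without IFN-beta 2). Of all probes 6726 were called. This count was 11315 with normexp and percentile scaling, 2678 with no filter, 3998 with 1 probe per gene, 19962 with array weights, 1674 with slide as a block, 593 within slide 1, 2366 against control 3 alone, 3095 with controls 1 and 2 averaged, and 2910 to 14339 with 1 array left out, the highest without control 3. The share of higher probes among those called was 66.5%, but 25.6% with spike-in scaling (median of all probes -0.20) and 81.4% with normexp and percentile scaling (median 0.28). Of the listed genes 18 were called, 31 with normexp and percentile scaling, 44 with array weights, 8 within slide 1, and 15 to 36 with 1 array left out, the highest without control 3. With the replicate block 5802 probes, 9 member probes and 21 listed genes were called, the member lost being Aim2 probe 1; each array correlated best with its own number, a hint from the data only. Dim controls limit Ifi214 and Ifi213 probe 2 to bounds.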
